A study of Mus musculus with 8 samples.

Results

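The genes described here encode the subunits of the transcription factor NF-kB and its inhibitors, in follicular B cells of mice with an antigen receptor for hen egg lysozyme (HEL). They were chosen by name, as all probe sets whose platform gene symbol was Nfkb1, Nfkb2, Rel, Rela, Relb, Nfkbia, Nfkbib, Nfkbie, Nfkbiz or Tnfaip3. Of these 10 genes, 9 had probe sets with that symbol alone, out of 8252 genes named so on the array, and they held 13 of its 12422 probe sets. Nfkb1 had none and is not analysed here. Signal was high enough for a test in 9 of the 13 probe sets, which covered 7 genes, while Rel, Tnfaip3 and a probe set each of Rela and Nfkbiz were too dim. The members were chosen with earlier results of these data known.

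The study held 8 single-colour arrays in 4 groups of 2: IgMG cells with HEL, IgMG cells without, IgM cells with HEL and IgM cells without. All cells carried a receptor against HEL, and IgMG is a chimera of IgM whose spacer, transmembrane part and cytoplasmic tail came from IgG1. Every array was made from pooled mice, 8 and 6 for IgMG with HEL, 5 and 6 for IgMG without, 4 and 2 for IgM with HEL and 2 and 4 for IgM without, so receptor and pool size cannot be told apart. No source used here gives the strain or age of the mice, the origin of their receptor genes or the length of the stimulation. The series was designed to compare antigen-induced genes between the receptors. The replicate numbers of the titles mark experiments, and nothing shows whether arrays shared mice, so p-values measure the spread between these arrays.

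NF-kB proteins are dimers of Rela, Relb, Rel and the processed products of Nfkb1 and Nfkb2. In resting B cells inhibitor proteins of the IkB family, among them the products of Nfkbia, Nfkbib and Nfkbie, hold the dimers in the cytoplasm. Antigen receptor signals activate the IKK kinase complex, IKK marks the inhibitors for degradation, and the released dimers enter the nucleus, where they switch on genes that include several of their own inhibitors. Since the release acts on proteins, transcript levels do not measure it.

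The cell type was checked on marker genes fixed for the purpose, by summed signal of each gene's brightest probe set. All 8 B cell markers with a probe set, among them Ms4a1, Cd79a and Pax5, were bright enough to be tested, and their sums lay between 31807 and 40443 on the 8 arrays. The 4 follicular markers were also tested, with sums between 1951 and 4582. T cell markers were near background: 1 of 8 was bright enough, and sums lay between 51.8 and 173.1. Markers of myeloid cells, 13 of 15 bright enough to be tested, and of NK cells, 6 of 7, had their highest sums on the second unstimulated IgMG array. Myeloid sums were 5241 and 6189 in IgMG cells with HEL, 1906 and 16895 in IgMG cells without, 4264 and 1174 in IgM cells with HEL and 4776 and 2970 in IgM cells without. NK sums were 999.1 and 823.8 in IgMG cells with HEL, 524.5 and 3633 in IgMG cells without, 457.2 and 350.2 in IgM cells with HEL and 403.4 and 338.7 in IgM cells without. Every IgMG array lay above every IgM array in the NK sum, so receptor and this signal cannot be told apart. The 4 erythroid markers with a probe set summed to 15863 to 24118 and the 5 plasma cell markers to 615 to 1628 over the arrays. Hba-a1, an erythroid marker, had the highest mean signal of all markers, 12192, beside 11799 for the B cell marker Ighm. The markers therefore do not show that the arrays held B cell RNA alone. No marker on any list was at 0 on all arrays, which held also for the T cell markers near background and so does not show expression. The signal ratio of the 5' to the 3' probe set of Gapdh, a measure of RNA integrity, was 0.221 and 0.140 in IgMG cells with HEL, 0.237 and 0.395 in IgMG cells without, 0.328 and 0.755 in IgM cells with HEL and 0.373 and 0.259 in IgM cells without. The second array of IgM cells with HEL therefore stood apart in this ratio. Both IgMG arrays with HEL lay below all other arrays in it. Among cells with HEL, receptor and this ratio therefore cannot be told apart. In bulk RNA, fewer cells of a type and less RNA per cell cannot be told apart.

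With antigen, IgM cells raised the transcripts of 5 member probe sets of 5 genes: Nfkbiz, Relb, Nfkbib, Nfkbia and Rela. Their log2 changes on the scale log2(signal + 16) ran from 0.73 for Rela to 2.04 for Nfkbiz, and 0 of 9 tested member probe sets fell. A change counted as a rise or fall where its adjusted p in limma was under 0.05, which 6.7% of all 7453 tested probe sets met upwards and 7.27% downwards. The median log2 change of the 9 probe sets was 0.83 in IgM cells, against -0.02 for all tested. In IgMG cells 1 of the 9, Nfkbiz, rose and 0 fell, where 3.1% of all tested probe sets rose and 2.29% fell, and the median change of the 9 was 0.37, against -0.05 for all. That background of 231 rises and 171 falls became 233 and 97 when the arrays were centred on their medians. Both arrays with HEL lay above both without in 6 of 9 in IgMG cells and 7 of 9 in IgM cells, against 23.7% of all tested probe sets in IgMG cells and 27.6% in IgM cells. Without both arrays that stood apart, the second unstimulated IgMG array and the second IgM array with HEL, 1 member was called in IgMG cells and 4 in IgM cells, where Rela was lost (0.56, adjusted p = 0.0913 in limma).

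**Figure D1:**
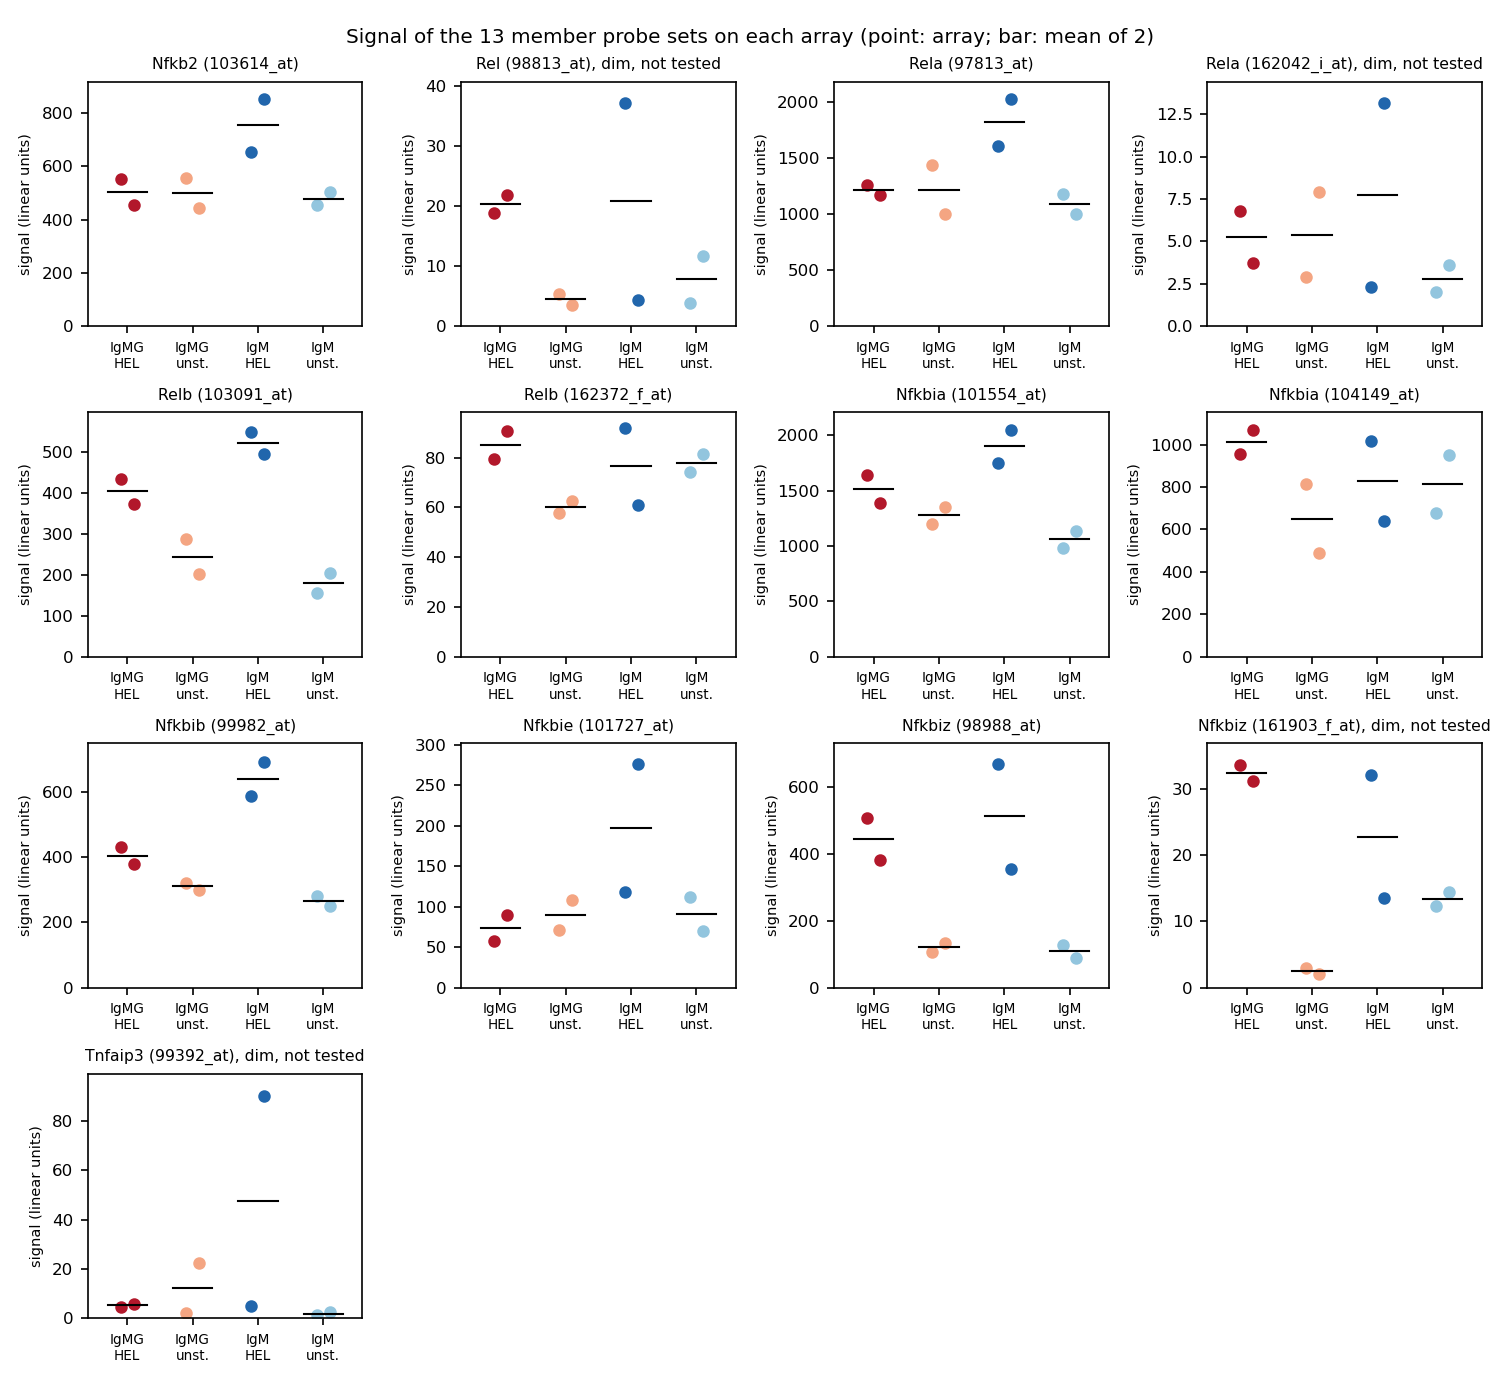
Signal in linear units of each of the 13 member probe sets, a panel each with its own axis from 0. Points are arrays (replicate 1 left, replicate 2 right), black bars the mean of 2 arrays, and groups run from IgMG with HEL, IgMG unstimulated and IgM with HEL to IgM unstimulated. Nfkbib reached 585.3 and 691.2 in IgM cells with HEL, above all other groups, while Nfkbiz was raised with HEL in both kinds of cell.

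The inhibitor genes are taken first. Nfkbia encodes IkB alpha, the classical inhibitor that NF-kB itself induces, and Nfkbib encodes IkB beta, a more slowly turned over relative. Because both rose in IgM cells, the 250 bases before their transcription starts are shown, from RefSeq on build GRCm38.p6, with matches of the kB consensus site, the binding sequence of NF-kB dimers, in capitals where either strand holds it.
Nfkbia, minus strand, chr12:55492648-55492897: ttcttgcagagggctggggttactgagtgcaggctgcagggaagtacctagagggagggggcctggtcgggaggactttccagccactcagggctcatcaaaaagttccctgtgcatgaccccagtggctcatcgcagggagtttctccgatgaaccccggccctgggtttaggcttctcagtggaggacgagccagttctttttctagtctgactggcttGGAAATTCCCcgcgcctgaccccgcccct
Nfkbib, minus strand, chr7:28766645-28766894: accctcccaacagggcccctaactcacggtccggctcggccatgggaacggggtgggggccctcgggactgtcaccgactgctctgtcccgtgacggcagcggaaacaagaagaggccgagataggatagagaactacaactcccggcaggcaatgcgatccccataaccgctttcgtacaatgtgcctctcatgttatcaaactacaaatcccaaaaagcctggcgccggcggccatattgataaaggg
Nfkbia held 1 match, on the strand opposite to the gene, from base -29 to base -20, and Nfkbib held none. A match in a window this short describes the letters and is not a measured binding site.

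Windows of 300 bases, from 250 before to 50 after the start, were listed for 7 of the 10 genes. Searches covered both strands and kept overlapping matches, and 7 of the 10 windows of these genes, which belong to 5 of them, had at least 1, where 4.51% of all 32851 windows had one. Several windows of a gene are not independent. To let the letters be compared, the matches nearest the starts of Tnfaip3, Rel, Nfkbie and Nfkb2 are shown with 10 bases on each side, in the direction of the gene.
Tnfaip3, chromosome 10: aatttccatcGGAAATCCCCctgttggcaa
Rel, chromosome 11: gtaagcagcgGGAAATCCCCccccctcccc
Nfkbie, chromosome 17: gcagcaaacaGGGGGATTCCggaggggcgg
Nfkb2, chromosome 19, gene strand: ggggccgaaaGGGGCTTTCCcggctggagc
Nfkb2, chromosome 19, opposite strand: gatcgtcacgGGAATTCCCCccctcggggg
The Rel and Tnfaip3 matches were the same 10 letters, GGAAATCCCC. Nfkb2 had matches in each of its 3 windows, which overlap in part, and Rela and Nfkbib had none.

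On its brighter probe set, 101554_at, Nfkbia had signals of 1636 and 1386 in IgMG cells with HEL and 1202 and 1352 without, and of 1750 and 2048 in IgM cells with HEL and 986.1 and 1131 without. Arrays with HEL lay above those without in both kinds of cell, by a narrow margin in IgMG cells. The log2 change was 0.24 ± 0.16 (SE) in IgMG cells, with an adjusted p = 0.432 in limma, and 0.83 ± 0.16 in IgM cells, with an adjusted p = 0.0105. The call in IgM cells was lost without the second array with HEL (0.72, adjusted p = 0.0803 in limma) and without the first array without HEL (0.73, adjusted p = 0.0854). The other Nfkbia probe set, 104149_at, disagreed. It had 957.5 and 1068 in IgMG cells with HEL and 814.4 and 487.3 without, against 1015 and 640.2 in IgM cells with HEL and 677.7 and 950.4 without. The groups overlapped in IgM cells, with a log2 change of 0.01 ± 0.29 (SE), and did not overlap in IgMG cells, where the change was 0.67 ± 0.29 and missed the threshold (adjusted p = 0.221 in limma). Averaged over both probe sets, the change of Nfkbia in IgM cells was 0.42 ± 0.17, with an adjusted p = 0.146. The 8 arrays gave the 2 probe sets a Pearson correlation of 0.06, so they did not follow each other.

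Nfkbib had the smallest adjusted p of the members in IgM cells. Its signals were 432.0 and 376.9 in IgMG cells with HEL and 319.4 and 300.3 without, and 585.3 and 691.2 in IgM cells with HEL and 280.4 and 248.9 without. Every array with HEL lay above every array without, and both IgM arrays with HEL lay above all others. It rose by 1.22 ± 0.17 (SE) on the log2 scale in IgM cells, with an adjusted p = 0.00254 in limma. In IgMG cells the change was 0.37 ± 0.17, with an adjusted p = 0.246. Across all 21 variations of the processing Nfkbib stayed past the threshold in IgM cells, with changes from 1.09 to 1.34.

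Nfkbie encodes IkB epsilon, an inhibitor known for restraining Rel-containing dimers in B cells. It had 57.2 and 89.9 in IgMG cells with HEL and 71.1 and 107.8 without, against 118.5 and 276.8 in IgM cells with HEL and 112.2 and 69.3 without. Its IgM groups did not overlap, by a narrow margin. The value of 276.8 came from the array with the highest Gapdh ratio, and the other 7 arrays lay between 57.2 and 118.5. The log2 change was -0.24 ± 0.39 (SE) in IgMG cells and 0.92 ± 0.39 in IgM cells, with adjusted p-values of 0.780 and 0.158 in limma. Without that array the change in IgM cells was 0.36, and without the other array with HEL it was 1.49, with an adjusted p = 0.0419. With the Gapdh ratio as a covariate it was 0.50, with an adjusted p = 0.479 in limma.

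Nfkbiz encodes IkB zeta, an atypical, nuclear member of the inhibitor family that acts as a coactivator of some NF-kB targets. It had the largest change of the tested members in both kinds of cell. On probe set 98988_at it had signals of 507.4 and 382.2 in IgMG cells with HEL and 107.1 and 134.4 without, and of 667.7 and 355.7 in IgM cells with HEL and 126.4 and 89.7 without. The 4 arrays with HEL lay above all 4 without, and the lower IgM array with HEL fell below both IgMG arrays with HEL. It rose by 1.75 ± 0.30 (SE) on the log2 scale in IgMG cells (adjusted p = 0.0159 in limma) and by 2.04 ± 0.30 in IgM cells (adjusted p = 0.00360). These changes ranked 46 and 61 from the top among 7453 probe sets. The call in IgM cells held in all 21 variations. That in IgMG cells was lost without the first array with HEL (1.55, adjusted p = 0.107 in limma), without the second (1.94, adjusted p = 0.0940) and with the Gapdh ratio as a covariate (1.64, adjusted p = 0.0760).

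The other Nfkbiz probe set, 161903_f_at, of a kind that Affymetrix marks for probes shared with other transcripts, was too dim for the main test. It had 33.6 and 31.2 in IgMG cells with HEL and 3.0 and 2.0 without, against 32.1 and 13.5 in IgM cells with HEL and 12.3 and 14.4 without. The groups were apart in IgMG cells and overlapped in IgM cells. Fitted with no filter on dim probe sets, it rose by 1.39 ± 0.28 (SE) in IgMG cells (adjusted p = 0.0492 in limma) and had a change of 0.36 ± 0.28 in IgM cells (adjusted p = 0.537). Its changes had the sign of the brighter probe set's in both kinds of cell, without a call in IgM cells.

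Tnfaip3 encodes A20, a ubiquitin-editing enzyme that switches NF-kB signalling off upstream of IKK and is a well-known target of NF-kB. Its probe set was dim, with 4.6 and 6.0 in IgMG cells with HEL and 2.0 and 22.4 without, against 5.0 and 89.9 in IgM cells with HEL and 1.3 and 2.6 without. The single high value again came from the array with the highest Gapdh ratio, and the next highest from the array with the most myeloid and NK marker signal. Their part in these values was not tested. Fitted with no filter, the change was -0.30 ± 0.66 (SE) in IgMG cells and 1.39 ± 0.66 in IgM cells, with adjusted p-values of 0.902 and 0.289 in limma. At this signal no change could be established.

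Of the subunits, Relb had the largest change. RelB pairs with the product of Nfkb2 in the slower, non-canonical arm of the pathway and is itself induced by canonical signals. On the brighter probe set, 103091_at, signals were 433.5 and 372.6 in IgMG cells with HEL and 286.3 and 200.7 without, and 547.8 and 493.4 in IgM cells with HEL and 155.6 and 204.9 without. All arrays with HEL lay above all without, and the IgM arrays with HEL lay above the IgMG arrays with HEL. It rose by 1.46 ± 0.22 (SE) on the log2 scale in IgM cells, with an adjusted p = 0.00359 in limma, and kept that call in all 21 variations, with at most 1.64 and, averaged over both its probe sets, the lowest change, 0.71. The change in IgMG cells was 0.71 ± 0.22, with an adjusted p = 0.0963. The other Relb probe set, 162372_f_at, is of the kind marked for probes shared with other transcripts. Its mean signal over all arrays was 74.9, against 336.8 for 103091_at. It had 79.6 and 90.7 in IgMG cells with HEL and 57.7 and 62.5 without, against 91.8 and 61.1 in IgM cells with HEL and 74.3 and 81.4 without. It disagreed in IgM cells, where the groups overlapped and the log2 change was -0.04 ± 0.23, and had the sign of the brighter one in IgMG cells, where the groups did not overlap and its change of 0.41 ± 0.23 missed the threshold (adjusted p = 0.338 in limma).

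Rela encodes p65, the main activating subunit of the canonical pathway. Probe set 97813_at had 1260 and 1172 in IgMG cells with HEL and 1434 and 997.5 without, and 1607 and 2026 in IgM cells with HEL and 1176 and 998.1 without. The IgM arrays with HEL lay above all other arrays, whereas the IgMG groups overlapped. The log2 change was 0.02 ± 0.20 (SE) in IgMG cells, with an adjusted p = 0.967 in limma. In IgM cells Rela rose by 0.73 ± 0.20, with an adjusted p = 0.0449, the nearest to the threshold of the 5 calls. It lost that call in 12 of 21 variations. Among them were the fits without the first (0.89, adjusted p = 0.0529 in limma) or the second IgM array with HEL (0.56, adjusted p = 0.240), without the first (0.84, adjusted p = 0.116) or the second IgM array without HEL (0.61, adjusted p = 0.207), without the first (adjusted p = 0.0804) or the second IgMG array with HEL (adjusted p = 0.0808) and with the arrays centred on their medians (0.69, adjusted p = 0.0769). The other Rela probe set, 162042_i_at, was at or below 13.2 on all arrays and was not tested.

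Nfkb2 encodes p100, an inhibitor-like precursor that is processed into the p52 subunit. It had 551.5 and 453.4 in IgMG cells with HEL and 554.9 and 444.8 without, against 655.8 and 854.9 in IgM cells with HEL and 453.2 and 503.0 without. As for Rela, the IgM arrays with HEL lay above all the others and the IgMG groups overlapped. The log2 change was 0.01 ± 0.20 (SE) in IgMG cells and 0.63 ± 0.20 in IgM cells, with adjusted p-values of 0.987 and 0.0640 in limma. It missed the threshold in IgM cells with all 8 arrays, and passed it without the first (adjusted p = 0.0495) or the second unstimulated IgMG array (adjusted p = 0.0485) and with only the brightest 40% of probe sets tested (adjusted p = 0.0492). The log2 values of Nfkb2 and Rela over the 8 arrays had a Pearson correlation of 0.92, given as a description, since the arrays share their groups and scaling.

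Rel encodes c-Rel, the subunit most associated with proliferation of B cells. Its probe set was dim, with 18.9 and 21.8 in IgMG cells with HEL and 5.4 and 3.5 without, against 37.1 and 4.4 in IgM cells with HEL and 3.9 and 11.7 without. The IgMG groups were apart, and the IgM groups overlapped because the second array with HEL was low. With no filter on dim probe sets the log2 change was 0.83 ± 0.41 (SE) in IgMG cells and 0.49 ± 0.41 in IgM cells, with adjusted p-values of 0.385 and 0.576 in limma. Of the dim probe sets, those of Rel and Nfkbiz were lower on that array than on the first IgM array with HEL. Those of Tnfaip3 and Rela were higher on it. The cause was not tested.

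**Figure D2:**
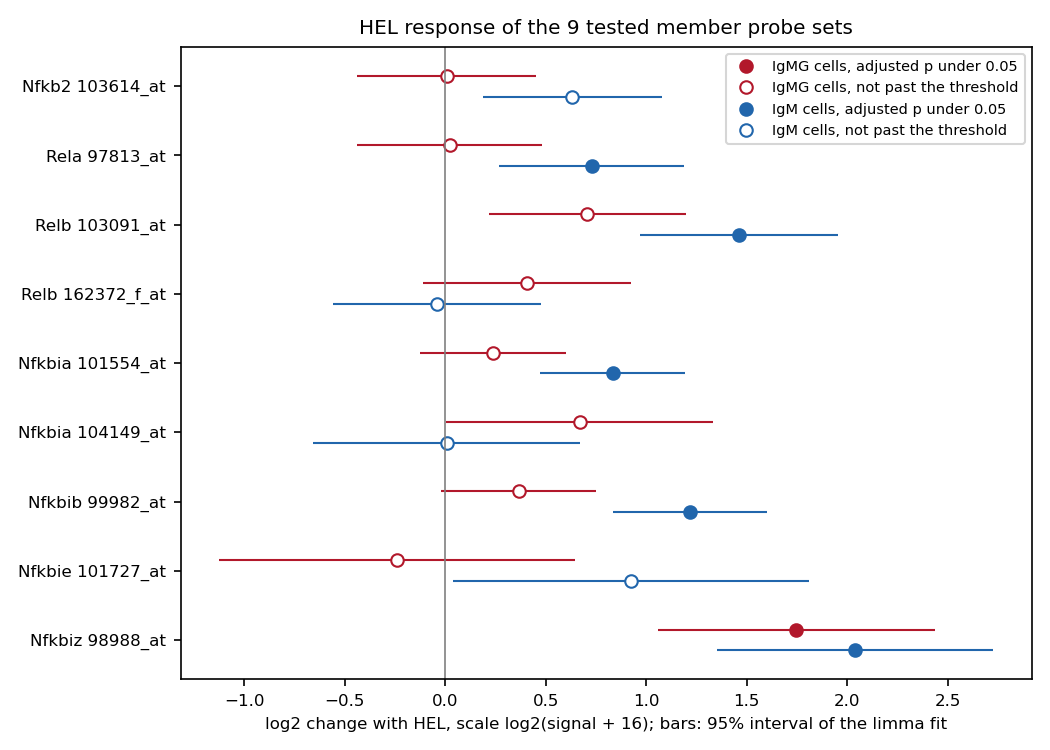
Log2 change with HEL, on the scale log2(signal + 16), of the 9 tested member probe sets in IgMG cells (red, upper) and IgM cells (blue, lower), with the 95% interval of the limma fit. Filled points passed an adjusted p of 0.05: Nfkbiz in IgMG cells, and Rela, Relb, Nfkbia, Nfkbib and Nfkbiz, each by its brighter probe set where it has several, in IgM cells.

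The responses of IgMG cells that missed the threshold were not shown to be absent. Their 95% intervals ran from 0.22 to 1.20 for Relb 103091_at, from -0.12 to 0.60 for Nfkbia 101554_at, from -0.02 to 0.75 for Nfkbib, from -0.44 to 0.48 for Rela and from -0.44 to 0.45 for Nfkb2. For Relb 162372_f_at the interval ran from -0.11 to 0.93, for Nfkbia 104149_at from 0.004 to 1.33 and for Nfkbie from -1.12 to 0.65. The intervals are not adjusted for the number of tests. Those of Relb 103091_at and Nfkbia 104149_at therefore lie above 0 although both missed the threshold.

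Averaged over both receptors, which uses all 8 arrays, 4 of 9 member probe sets rose and 0 fell, where 9.18% of all tested probe sets rose and 11.0% fell. They were Nfkbiz (log2 change 1.89 ± 0.21, SE), Relb (1.08 ± 0.15), Nfkbib (0.79 ± 0.12) and Nfkbia (0.54 ± 0.11), with adjusted p-values of 5.75e-04, 0.00176, 0.00247 and 0.0113 in limma. Rela, with 0.38 ± 0.14 and an adjusted p = 0.101, and Nfkb2, with 0.32 ± 0.14 and an adjusted p = 0.142, missed the threshold. The call of Nfkbia was lost without the first IgMG array with HEL (0.48, adjusted p = 0.0548), and those of Nfkbiz, Relb and Nfkbib held in all 20 variations of this contrast. Relb had 0.63 when its probe sets were averaged.

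The design asks whether the responses differ between the receptors. In the limma test of that difference 0 of 9 member probe sets passed the threshold, and 0 of all 7453 did (0.0%). At an unadjusted p under 0.05 there were 4 of 9 members, against 10.1% of all tested. With the Gapdh ratio as a covariate, 394 of all 7453 had such a p in limma, against 750 without it. The difference, IgMG minus IgM, was below 0 in 7 of 9 member probe sets, against 51.3% of all, with a median of -0.62 against -0.02. The 4 members were Nfkbib (-0.85 ± 0.24, SE, unadjusted p = 0.00621), Nfkbia by probe set 101554_at (-0.59 ± 0.23, unadjusted p = 0.0276), Rela (-0.71 ± 0.29, unadjusted p = 0.0362) and Relb by probe set 103091_at (-0.75 ± 0.31, unadjusted p = 0.0366), with adjusted p-values in limma of 0.414 to 0.469. The 95% interval ran from -1.40 to -0.31 for Nfkbib and from -1.11 to -0.08 for Nfkbia, so that the data allow both large and small differences. Nfkb2 had -0.62 ± 0.28 (SE), with an interval from -1.25 to 0.01, and Nfkbie -1.16 ± 0.55, from -2.41 to 0.09.

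The exceptions in sign among the tested probe sets were the other ones of Relb (0.45 ± 0.32) and Nfkbia (0.66 ± 0.41), so for these genes the direction depends on the probe set. Averaged over both probe sets, the difference was 0.03 for Nfkbia and -0.15 for Relb. Fitted with no filter on dim probe sets, Nfkbiz 161903_f_at had 1.03 ± 0.40 (SE, unadjusted p = 0.0308, adjusted p = 0.544 in limma), opposite in sign to its brighter probe set. In the same fit Rel had 0.34 ± 0.58, the dim Rela probe set -0.30 ± 0.34 and Tnfaip3 -1.70 ± 0.93, with adjusted p-values from 0.636 to 0.900. Nfkbiz 98988_at had -0.29 ± 0.43 (SE), with an interval from -1.26 to 0.68, and 0.15 without the first IgM array with HEL. With the Gapdh ratio as a covariate the difference of the other Nfkbia probe set turned to -0.25. Nfkbie had -0.25 with that covariate and -0.60 without the second array of IgM cells with HEL. This contrast was also simulated, with a single data set for each size, normal noise at each probe set's residual spread and 200 changed probe sets among 7453. A difference of 1 on the log2 scale was recovered in 0.0% and a difference of 2 in 62.0% of the changed probe sets. These shares hold for those settings, which the data need not share.

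**Figure D3:**
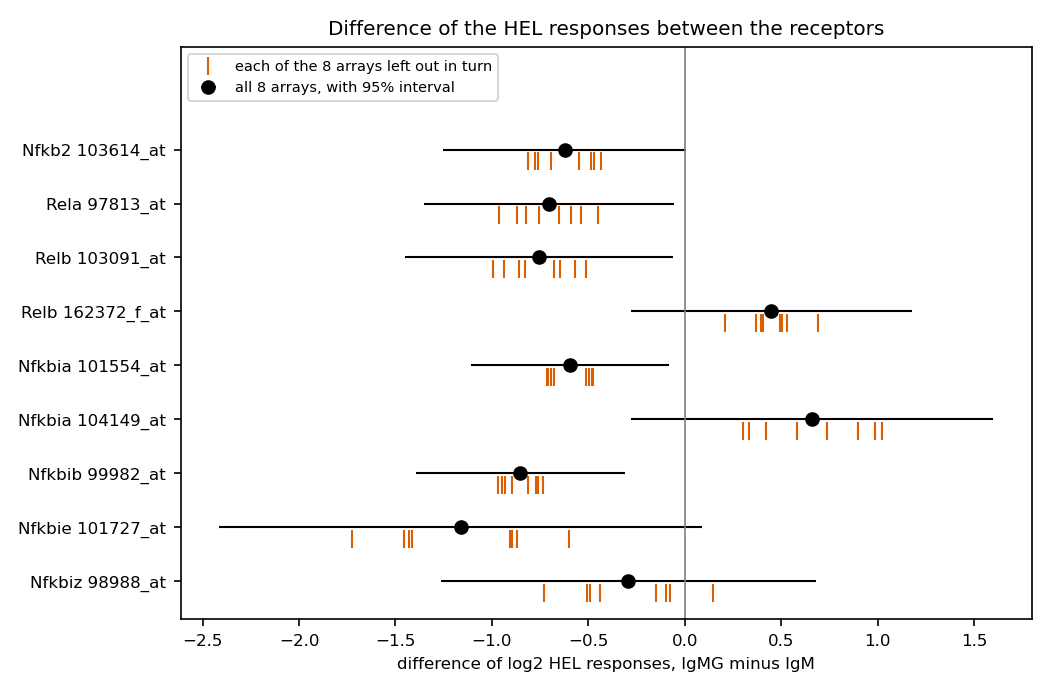
Difference of the log2 responses to HEL, IgMG minus IgM, for the 9 tested member probe sets. Black points with bars are the fit of all 8 arrays and its 95% interval, and orange ticks the values with each array left out in turn. The points of 7 probe sets lie below 0, and those of Relb 162372_f_at and Nfkbia 104149_at above.

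The levels of the receptors were also compared directly. Without antigen 0 of 9 member probe sets differed between IgMG and IgM cells in limma (0.0% of all tested), and 0 of 9 had an unadjusted p under 0.05, against 4.62% of all. Their log2 differences lay between -0.34 ± 0.29 (SE) for Nfkbia 104149_at and 0.39 ± 0.22 for Relb 103091_at. With antigen 0 of 9 passed in limma, against 0.0134% of all, and 4 of 9 had an unadjusted p under 0.05, against 13.9% of all. With the Gapdh ratio as a covariate, 430 of all 7453 had such a p in limma, against 1037 without it. In 6 of 9 both IgMG arrays lay below both IgM arrays, against 24.5% of all. The largest of these differences were Nfkbie at -1.17 ± 0.39 and Nfkbib at -0.64 ± 0.17, with adjusted p-values of 0.261 and 0.236 in limma. With the Gapdh ratio as a covariate they were -0.24 for Nfkbie and -0.40 for Nfkbib, so the order of the 2 turned, and without the first IgM array with HEL Nfkbie had -1.73. This comparison shares its arrays with the test of the difference of responses and does not add to it.

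**Figure D4:**
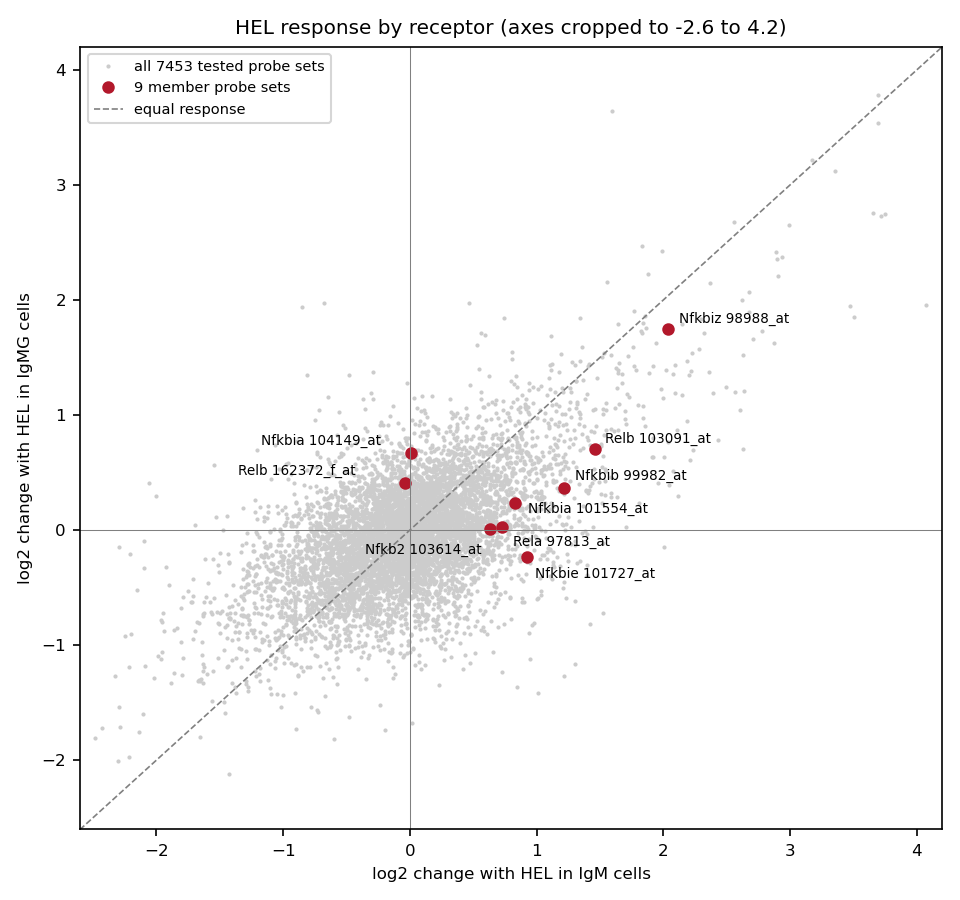
Log2 change with HEL in IgMG cells (vertical) against that in IgM cells (horizontal) for all 7453 tested probe sets (grey) and the 9 member probe sets (red). The dashed line marks equal responses, and 14 probe sets lie outside the axes, which end at -2.6 and 4.2. Members below the line had the smaller change in IgMG cells, and the other probe sets of Nfkbia and Relb lie above it.

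The pathway around the members was described with lists chosen by name, with earlier results of these data known. Their shares beside those of all tested probe sets are therefore a description and not a test. Of 20 genes that lead from the antigen receptor to the IKK complex, 13 had a tested probe set. In IgMG cells 0 rose and 0 fell, where 3.1% of all tested probe sets rose and 2.29% fell, and the median log2 change was -0.22, against -0.05 for all. In IgM cells 0 rose and 5 fell, where 6.7% of all rose and 7.27% fell, and the median was -0.21, against -0.02 for all. The smallest adjusted p-values in IgMG cells were those of the adaptor Bcl10 (0.51 ± 0.16, SE, adjusted p = 0.105 in limma), the ubiquitin ligase Traf6 (0.55 ± 0.18, adjusted p = 0.121) and Birc2 (-0.57 ± 0.19, adjusted p = 0.121). The genes that fell in IgM cells were Ikbkg, the regulatory subunit of IKK (log2 change -1.19 ± 0.27, SE), the adaptor Blnk (-1.18 ± 0.18), the ubiquitin ligases Birc2 (-0.67 ± 0.19) and Birc3 (-0.56 ± 0.15) and the kinase adaptor Tab2 (-0.51 ± 0.14), with adjusted p-values from 0.00394 to 0.0490 in limma. Another probe set of Ikbkg and one of Birc2 had the opposite sign, and another of Blnk was not called. Of these calls that of Blnk held in all 22 fits, the reported one and its variations, whereas Ikbkg was called in 16, Birc3 in 11, Tab2 in 9 and Birc2 in 6. Birc2, Birc3 and Tab2 were not called without any one of the 4 IgM arrays or of the 2 IgMG arrays with HEL, and Ikbkg not without the second IgM array with HEL (-0.76, adjusted p = 0.0908 in limma) or either one without.

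Of 22 other regulators 13 were tested, and 0 rose in either kind of cell. Their median log2 change was -0.03 in IgMG cells and -0.26 in IgM cells, beside the same -0.05 and -0.02 for all tested probe sets. In IgMG cells 0 fell, with the smallest adjusted p-values in limma for Tax1bp1, an adaptor of A20 of which 1 of 2 other probe sets had the opposite sign (0.38 ± 0.14, adjusted p = 0.139), Cd40 (-0.37 ± 0.17, adjusted p = 0.242) and Tnip1, an A20-binding protein (-0.34 ± 0.19, adjusted p = 0.323). In IgM cells 3 fell: the deubiquitinase Otud7b (-1.22 ± 0.27), the nuclear IkB relative Bcl3 (-1.0 ± 0.28) and the receptor Cd40 (-0.85 ± 0.17), with adjusted p-values from 0.0120 to 0.0439. Over the 22 fits Cd40 was called in 18, Otud7b in 17 and Bcl3 in 15. Bcl3 was not called without any one of the 4 IgM arrays, and Cd40 (-0.71) and Otud7b (-0.80) were not without the second IgM array with HEL or either one without.

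Among 30 genes known as targets of NF-kB in lymphocytes, a list also chosen with earlier results of these data known, 23 were tested. In IgMG cells 7 rose and 2 fell, with a median log2 change of 0.70, against the 3.1%, 2.29% and -0.05 of all tested probe sets. In IgM cells 12 rose and 2 fell, with a median of 0.99, against 6.7%, 7.27% and -0.02. In IgMG cells the largest changes past the threshold were those of Cd83, a surface marker of activation (3.78 ± 0.28, SE), Myc (3.54 ± 0.22), Irf4 (2.73 ± 0.17), Ccl4 (2.66 ± 0.28), Junb (1.57 ± 0.22) and Ccl3 (1.49 ± 0.32). Another probe set of Cd83 was not called. Ccl3 was called in 12 of 22 fits, with 0.91 at an offset of 64 in place of 16, and not without either IgMG array with HEL, the first IgMG array without or either IgM array with HEL (adjusted p up to 0.213 in limma). Junb was not called without the first (1.46, adjusted p = 0.0704) or the second IgMG array with HEL (1.68, adjusted p = 0.0580). In IgM cells they were those of the chemokines Ccl4 (5.94 ± 0.28) and Ccl3 (4.36 ± 0.32), the transcription factors Irf4 (3.72 ± 0.17) and Myc (3.69 ± 0.22), Cd83 (3.69 ± 0.28) and the costimulatory Cd86 (2.50 ± 0.41). Unstimulated IgM signals of both chemokines were near background, at 19.6 and 3.1 for Ccl4 and 16.8 and 6.4 for Ccl3, so their changes depend on the offset. At an offset of 64 Ccl4 had 4.46 and Ccl3 3.00, Ccl3 then lying below Irf4 (3.58), Cd83 (3.50) and Myc (3.38). Cd86 was not called without the second IgM array with HEL (2.19, adjusted p = 0.0558 in limma). The 2 that fell were Ltb and Psmb9 in both kinds of cell, named here after their values were seen. The difference of responses passed in limma for 0 genes of the 3 lists, and between cells with HEL only Ccl4 was lower in IgMG (-2.78 ± 0.28, adjusted p = 0.0358). That call was lost without any one of the 4 arrays with HEL, with the Gapdh ratio as a covariate, with an offset of 1, with no filter and with no intensity trend. These genes have regulators other than NF-kB, and the part of NF-kB in their changes was not tested.

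**Figure D5:**
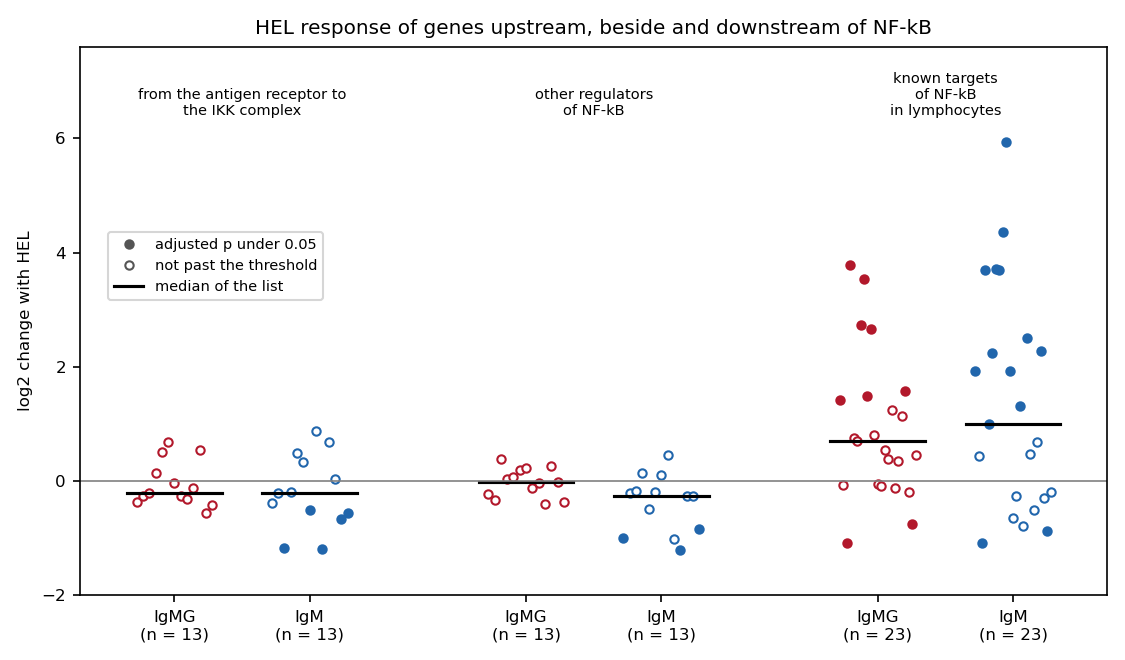
Log2 change with HEL of the tested genes of 3 lists, by their brightest probe set, in IgMG (red, left) and IgM cells (blue, right). The lists were chosen with earlier results of these data known. Filled points passed an adjusted p of 0.05 and bars are medians. Upstream genes and other regulators had medians between -0.26 and -0.03, and the targets 0.70 in IgMG and 0.99 in IgM cells.

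By likeness of pattern, measured as the Pearson correlation of log2 values over the 8 arrays, the genes nearest to Nfkbiz were Rlim (0.99), Ccdc115 (0.99) and Idi1 (0.98). Nearest to Relb were Pip4k2c (0.98), Nasp (0.97) and Sertad1 (0.97), and nearest to Nfkbia were Hspa4 (0.99), Atf4 (0.99) and Sepsecs (0.98). Nearest to Nfkbib were Inpp5d (0.98), Ddx54 (0.98) and Ccl4 (0.98). Among the members, Nfkbia and Nfkbib, both by their brighter probe sets, had 0.94, Relb and Nfkbib 0.90 and Relb and Nfkbia 0.90. Those nearest are each the highest of the values of all tested probe sets of other genes with a single symbol. They were taken over 8 arrays that fall into 4 groups, and describe those groups.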

How the data were processed

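Follicular B cell RNA was hybridised to 8 single-colour oligonucleotide arrays. The values deposited by the authors are 1 linear intensity for each probe set on each array, from MAS 5 per the submitters' processing notes. With 2% trimmed at either end, the mean of every array was about 150.1, a scaling under which total signal is taken as equal. Titles gave the groups and replicates. The 66 control probe sets were left out. Signals were taken as log2(signal + 16), which understates changes of dim genes, and the brightest 60% by mean log2 value (7453 of 12422, lowest mean signal 23.2) were tested.

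Symbols are those of the platform annotation dated 2016, and the 396 probe sets with several symbols and 1193 with none were not named. Tests were two-sided in limma 3.58.1 (R 4.3.3): a model of 4 group means on all arrays, moderated by eBayes along the intensity trend, and p-values adjusted by Benjamini-Hochberg over all tested probe sets, with a threshold of 0.05. There were 4 residual and 4.87 prior degrees of freedom, and the small number of arrays limits the precision. For 2 arrays against 2 the smallest exact permutation p is 0.333. Errors of log2 changes are the fit's SE and intervals cover 95%. The code was tested on simulated data.

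The members and the lists were chosen with earlier results of these data known. The text names all member probe sets, up to 6 called genes of a list in a contrast or, with none called, the 3 with the smallest p, and the 3 genes most alike in pattern. Variations (21) covered the offset, scaling, filter, trend, arrays in the fit, replicate block, averaging of probe sets, the Gapdh ratio and the threshold. Promoters came from RefSeq, and figures from matplotlib 3.10.9.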

Additional observations from a re-analysis of the deposited data

Results flagged for a closer look

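Tnfaip3, whose probe set was too dim for the main test, had changes of opposite sign in IgMG and IgM cells, and neither passed the test. Both IgMG arrays with HEL lay below the mean of the IgMG arrays without on the log2 scale, and both IgM arrays with HEL lay above the mean of the IgM arrays without. The difference of the responses, IgMG minus IgM, was -1.70 on the log2(signal + 16) scale. It was not among the tested probe sets, and fitted with no filter on dim probe sets its adjusted p was 0.636 in limma. The value rests on the second unstimulated IgMG array, with a signal of 22.4, and the second IgM array with HEL, with 89.9, while the other 6 arrays were at or below 6.0.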

How the results depend on the processing

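In IgM cells with HEL, 5 members were called with all arrays and 3 to 6 with each array left out in turn, the 3 without the second array with HEL or the first without, and 4 to 6 under the other variations. In IgMG cells 1 member was called, 2 with no filter and at a threshold of 0.1, 0 with the Gapdh ratio as a covariate, and 0 to 1 with each array left out. The receptor differences, with and without HEL and between the responses, had 0 members called in every variation, and the mean response 3 to 5 (4 with all arrays). The replicate block gave 4 calls in IgM cells, without Rela (adjusted p = 0.0616 in limma), and 1 in IgMG cells. Deviations of same-numbered arrays correlated at -0.16 to 0.02 over the 6 pairs of groups, and the main fit used no pairing. With 2 arrays in a group each deviation rests on a single array difference. These correlations therefore cannot decide whether same-numbered arrays shared an experiment. Nfkbia in IgM cells was not called when averaged over its probe sets (0.42), nor were Ikbkg (-0.51) and Birc2, of which Birc2 turned to 0.027 in IgM cells. The causes were not tested. Over all probe sets, calls ranged from 58 to 797 in IgMG cells (402 with the settings reported) and from 341 to 1543 in IgM cells (1041), from 842 to 2051 for the mean response (1505), 0 to 13 for the difference of responses, 0 to 7 with HEL and 0 to 32 without. Dim signal limits Rel and Tnfaip3.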
